A study of Mus musculus with 6 samples.

Results

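The 10 genes described here encode peptides, receptors and enzymes by which endothelium sets vessel tone: Adm, Calcrl, Ramp2, Ramp3, Edn1, Ednrb, Ece1, Nos3, Ace and Npr3. They were chosen by gene symbol, and all 10 are among the 24421 symbols measured. Sorted endothelial cells (EC) from normal brain were compared with sorted endothelial cells from glioma, taken 3 weeks after GL26l glioma cells were injected into the brain. The normal and glioma groups each hold 3 libraries, all from C57BL/6 mice. The labels name no injection for the normal brains, and they give neither the sort markers, nor the age of the animals, nor how many were pooled. The series' text calls the RNA sets independent but ties none to an animal, so the p-values reflect only how much these samples vary, and that variation may be technical. The column headers of glioma replicates 2 and 3 hold the words CtrL and Control, which the labels do not explain.

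Adrenomedullin, encoded by Adm, is a dilator peptide whose receptor is the protein of Calcrl joined to a partner protein from Ramp2 or Ramp3. Endothelin 1 is a constrictor peptide that the protease of Ece1 cuts from the precursor encoded by Edn1. It contracts smooth muscle through the receptor of Ednra, while the receptor of Ednrb on endothelium clears it and releases nitric oxide. Nos3 encodes the endothelial nitric oxide synthase, and nitric oxide relaxes smooth muscle through cyclic GMP. Ace encodes the enzyme that makes angiotensin II and inactivates bradykinin, and Npr3 the receptor that clears natriuretic peptides.

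Bases upstream of the annotated start are given for the genes of the ligands Adm and Edn1, and for Npr3, the only member whose groups did not overlap. Each run is the 250 bases before the RefSeq start on GRCm38.p6, in the direction of transcription. Capitals mark matches, on either strand, to GCGTG or ACGTG, core letters of the hypoxia response element, or to CACCC, a box bound by Kruppel-like factors.
Adm, chr7:110627407-110627656, plus strand: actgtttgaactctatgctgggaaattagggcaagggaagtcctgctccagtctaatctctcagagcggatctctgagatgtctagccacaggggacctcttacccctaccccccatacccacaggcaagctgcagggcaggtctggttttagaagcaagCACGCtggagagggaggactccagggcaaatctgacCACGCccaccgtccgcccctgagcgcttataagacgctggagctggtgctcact
Edn1, chr13:42301226-42301475, plus strand: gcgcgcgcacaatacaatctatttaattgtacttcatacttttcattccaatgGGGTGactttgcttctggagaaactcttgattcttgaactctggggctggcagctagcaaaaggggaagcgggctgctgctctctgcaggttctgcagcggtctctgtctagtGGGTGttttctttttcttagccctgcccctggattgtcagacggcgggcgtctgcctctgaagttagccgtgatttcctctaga
Npr3, chr15:11907372-11907621, minus strand: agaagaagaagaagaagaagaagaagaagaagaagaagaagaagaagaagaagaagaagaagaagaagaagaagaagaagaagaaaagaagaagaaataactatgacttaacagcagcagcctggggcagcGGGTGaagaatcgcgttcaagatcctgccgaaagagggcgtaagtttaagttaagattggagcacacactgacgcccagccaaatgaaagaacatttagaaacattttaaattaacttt
RefSeq windows were found for 8 of the 10 members, as 12 windows. A gene can have several windows. Those of Ece1 that start at 137861987 and 137862030 overlap, so 1 match can count in more than 1 window. GCGTG, or CACGC on the other strand, stood 2 times in the Adm window, 90 and 54 bases before the start, and in 6 of the 12 windows, of 4 genes (Adm, Ramp3, Ednrb and Ece1). The share of all 32851 windows of that length with this motif was 28.157%. ACGTG was in 1 of the 12 windows, of Ece1, and in 16.572% of all windows. CACCC was in 10 of the 12 windows, of all 8 genes but Adm, and in 52.014% of all windows. The AP-1 site TGACTCA was in 0 of the 12 windows and in 4.463% of all windows. Likewise AGATAA, bound by GATA factors, was in 0 of the 12 and in 9.988% of all windows. No searched motif overlapped another in the 3 windows shown. A match is a description of the letters, not a bound site.

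Values are the deposited numbers on a log2(x + 1) scale, so a step of 1 is a doubling of the normalized signal. QuantSeq counts the 3′ ends of transcripts, so levels of different genes were compared without a correction for length. Gene positions are on GRCm38, the assembly of mm10, from GENCODE. Sequencing depth is unknown. All 14 endothelial markers were above 0 in every library, and Pecam1, an endothelial adhesion receptor, averaged 15.89 ± 0.55 (SD, n = 3) for normal brain and 15.42 ± 0.55 (SD, n = 3) for glioma. Cldn5, the main claudin of brain endothelium, stood at 15.23 ± 1.40 (SD, n = 3) and 13.88 ± 1.02 (SD, n = 3). The libraries were uneven. Genes above 0 numbered 7446 to 13072 in normal and 10013 to 13108 in glioma libraries, and the lowest value above 0 was 7.43 in normal replicate 1 against 0.22 to 5.22 in the others. Normal replicates 2 and 3 were the most alike pair, with a correlation of 0.97 across 5880 genes, which are not independent replicates. A number at the end of the column headers is shared by those libraries, and another by glioma replicates 2 and 3. None is shared across the groups, so whatever that number stands for cannot be told apart from the group.

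Of the members, 9 were above 0 in all libraries, and Npr3 only in the glioma libraries. All 10 passed the filter on low values, Npr3 solely through its 3 glioma libraries. No member changed past the limma threshold of a Benjamini-Hochberg adjusted p of 0.05, as none of the 11862 tested genes did (0% called). Before adjustment, 509 genes (4.29% of those tested) had p under 0.05. Among the members only Npr3 did, and nothing is read from its p, since its filter and its normal values of 0 fixed the direction. The 3 glioma libraries lay wholly above or below the 3 normal libraries for 13.3% of tested genes (6.91% above and 6.37% below) and, among the members, for Npr3 alone. By sign, 3 members stood higher in glioma and 7 lower, beside 6096 higher and 5766 lower of all tested genes. The median difference of the members was -0.31 on the log2 scale, beside 0.05 over all tested genes. Of the 14 endothelial markers, 5 stood higher and 9 lower, with a median of -0.30, so the members' shift is not particular to them. With 3 libraries against 3, the exact two-sided permutation test cannot go below p = 0.10. In bulk samples such as these, fewer cells of a type and less RNA per cell cannot be told apart.

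**Figure D1:**
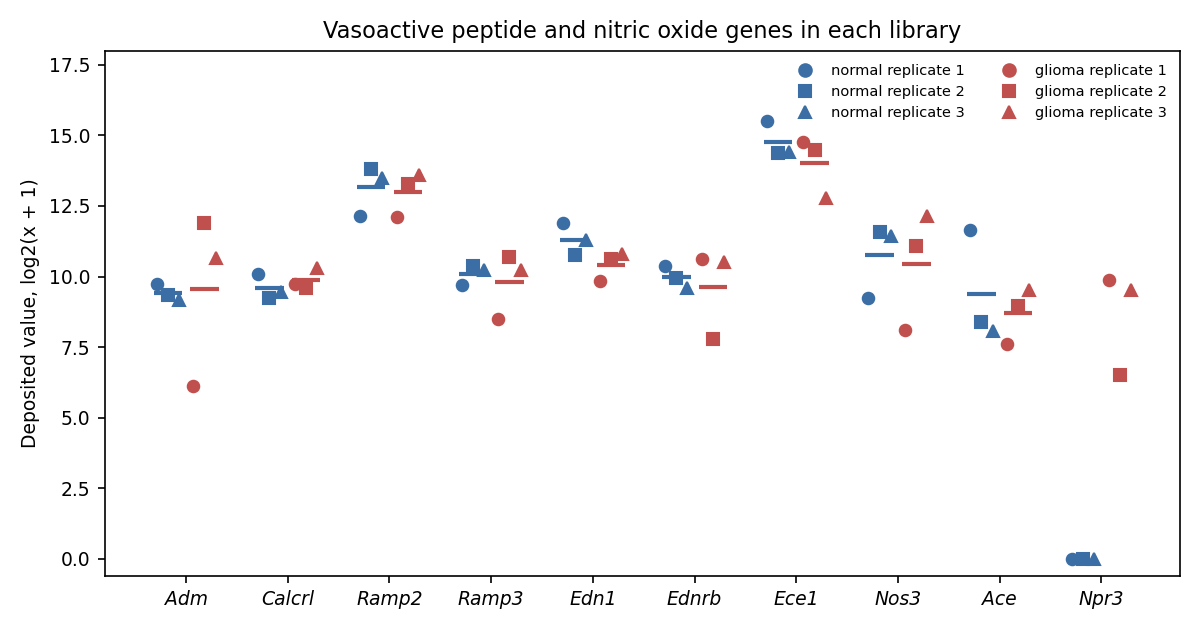
Deposited log2(x + 1) value (vertical axis) of the 10 members (horizontal axis) in each library, with blue for normal, red for glioma, the marker shape for the replicate number and a bar for the group mean (none for Npr3). The groups overlap for every member but Npr3, for which all 3 normal libraries are at 0 and the glioma libraries at 9.89, 6.52 and 9.53.

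Ece1 was the most abundant member, and it ranked between 24 and 369 of 24421 symbols in each library. Mean levels over the 6 libraries then ran from Ramp2 (13.07) through Edn1 (10.86), Nos3 (10.60), Ramp3 (9.95), Ednrb (9.80), Calcrl (9.73) and Adm (9.48) to Ace (9.03). Ramp2 stood above Edn1 in 6 of 6 libraries, by 2.21 ± 1.00 (SD of the difference, n = 6). Ece1 stood above Ramp2 in 5 of 6, by 1.32 ± 1.50. The other neighbours from Edn1 down to Ace differed by 0.07 to 0.65 on the log2 scale, less than the SD of each difference (0.95 to 1.91), so their order is not resolved.

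The ligand gene Adm (chromosome 7, 110627661 to 110629820) had a narrow range in normal and a wide one in glioma libraries. Normal replicates 1, 2 and 3 read 9.72, 9.33 and 9.17, against 6.11, 11.89 and 10.66 for the glioma replicates in the same order. Glioma replicates 2 and 3 lay above all normal libraries and glioma replicate 1 below all of them. The difference was 0.15 (SE 1.33, 95% interval -2.89 to 3.18, limma adjusted p = 0.989). It was 1.87 without glioma replicate 1 (adjusted p = 0.775), and -1.02 and -0.41 without glioma replicates 2 and 3. In rank, Adm moved from place 9013 in glioma replicate 1 to place 779 in glioma replicate 2.

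Glioma replicate 1 was also the library in which 6 of the 9 members above 0 everywhere were lowest (Adm, Ramp2, Ramp3, Edn1, Nos3 and Ace). The share of all genes lowest in that library was not counted, so this is not read as a trait of the members. The summed level of the 14 endothelial markers in glioma replicate 1 was 17.84 on the log2 scale. It was 18.09 and 18.63 in the other glioma libraries and 18.74 to 19.08 in normal ones. The markers with the highest values weigh most in such a sum. The median log2 value of these markers was 13.51 in glioma replicate 1, 14.35 and 13.78 in glioma replicates 2 and 3, and 13.60 to 14.24 in normal libraries. Of the marker lists for other cells, 7 of 8 fibroblast markers were above 0 in glioma replicate 1, with a sum of 11.84. The other libraries had 1 to 5 above 0 and sums of 5.71 to 9.46. The neuronal (12.89), granulocyte (13.11) and astrocyte (13.95) sums of glioma replicate 1 were also the highest of the 6. The highest marker in each was Tubb3 (11.98), S100a9 (12.84) and Slc1a2 (13.55), while Slc17a7, Retnlg and Gfap of the same lists were at 0 there. The part of these cells in the low member values was not tested.

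The receptor gene Calcrl (chromosome 2, 84330626 to 84425411) was among the steadiest members. It read 10.10, 9.25 and 9.45 in normal brain endothelium, against 9.72, 9.59 and 10.30 in glioma, and the groups overlapped. The difference was 0.27 (SE 0.59, 95% interval -1.06 to 1.61, limma adjusted p = 0.935). Without 1 library it was between 0.06 (without glioma replicate 3) and 0.52 (without normal replicate 1). Leaving out normal replicate 2 gave 0.10, and leaving out glioma replicate 2 gave 0.41. Its whole range over the 6 libraries was 1.06 on the log2 scale, the smallest among the members.

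The partner genes Ramp2 (chromosome 11, 101246028 to 101259546) and Ramp3 (chromosome 11, 6658521 to 6677475) were low in the replicates numbered 1 of both groups. Ramp2 read 12.16, 13.82 and 13.49 in normal brain endothelium, against 12.10, 13.26 and 13.59 in glioma. Ramp3 read 9.70, 10.36 and 10.24 in normal brain endothelium, against 8.48, 10.69 and 10.23 in glioma. The group differences were -0.17 for Ramp2 (SE 0.61, 95% interval -1.55 to 1.21, limma adjusted p = 0.963) and -0.30 for Ramp3 (SE 0.70, 95% interval -1.90 to 1.30, adjusted p = 0.941). Both turned positive when libraries were centred on the endothelial markers (0.17 and 0.04). The annotated span of Ramp2 overlaps that of Vps25 (101253707 to 101259549), a neighbour on the same strand. Vps25 itself read 12.38, 11.47 and 11.51 in normal brain endothelium, against 11.94, 10.74 and 11.29 in glioma, highest in normal replicate 1, where Ramp2 was low.

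Set against each other within a library, Ramp2 exceeded Ramp3 in all 6 libraries. A library-wide scale factor cancels in such a difference, but a shift that depends on the level of a gene does not. Ramp2 minus Ramp3 was 2.46, 3.46 and 3.25 in normal brain, against 3.62, 2.57 and 3.36 in glioma, a group difference of 0.13 (exact permutation p = 0.60, two-sided). Ramp2 likewise exceeded the receptor gene Calcrl in every library, by 2.06, 4.58 and 4.04 in normal and by 2.38, 3.68 and 3.29 in glioma (exact permutation p = 0.60). Ramp3 stood above Calcrl in 3 libraries and below it in the replicates numbered 1 of both groups and in glioma replicate 3.

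**Figure D2:**
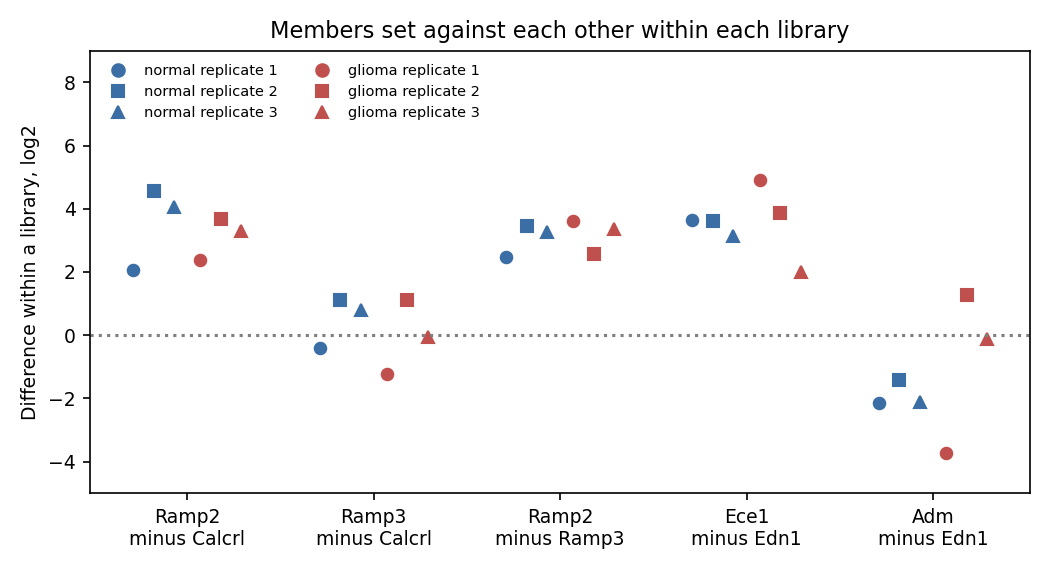
Difference in log2 value between pairs of members within each library (vertical axis), with blue for normal, red for glioma and the marker shape for the replicate number. Ramp2 minus Calcrl and Ramp2 minus Ramp3 are above 0 in every library, while Adm minus Edn1 is between -2.16 and -1.43 in normal and spreads from -3.74 to 1.27 in glioma libraries.

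Edn1 (chromosome 13, 42301476 to 42307990), the endothelin 1 precursor gene, stood lower in glioma by the largest shift relative to its error among the 9 members above 0 everywhere, without passing the test. It read 11.88, 10.76 and 11.29 in normal brain endothelium, against 9.85, 10.62 and 10.78 in glioma. The groups overlapped by a narrow margin, since glioma replicate 3 lay above normal replicate 2. The difference was -0.89 (SE 0.53, 95% interval -2.09 to 0.31, limma adjusted p = 0.875; exact permutation p = 0.20, two-sided). It stayed negative without each library in turn (-1.16 to -0.60), and was -0.32 without the replicates numbered 1 of both groups. Centred on the mean log2 value of the endothelial markers in each library, it was -0.55. Edn1 minus Pecam1 within a library differed by -0.41 between the groups (exact permutation p = 0.70, two-sided). The summed level of those markers was lower in every glioma library, but their median was highest in glioma replicate 2 (14.35). The balance of the ligand genes, Adm minus Edn1, was -2.16, -1.43 and -2.12 in normal brain, against -3.74, 1.27 and -0.13 in glioma (exact permutation p = 0.60). Only glioma replicate 2 had more Adm than Edn1 signal.

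Ece1 (chromosome 4, 137862237 to 137965229), the converting enzyme gene, was high in all libraries and lowest in glioma replicate 3. It read 15.52, 14.37 and 14.42 in normal brain endothelium, against 14.77, 14.48 and 12.78 in glioma. Glioma replicates 1 and 2 lay within the normal range and glioma replicate 3 below it. The difference was -0.76 (SE 0.66, 95% interval -2.27 to 0.75, limma adjusted p = 0.875), and -0.15 without glioma replicate 3. That library had the highest summed level of the 12 microglia and macrophage markers (13.41, with 10 above 0), against 6.98 to 11.14 in normal and 8.0 and 9.01 in the other glioma libraries. The part of such cells in the Ece1 value was not tested.

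Ednrb (chromosome 14, 103814625 to 103844402), the endothelin B receptor gene, differed more among the glioma libraries than between the groups. It read 10.36, 9.95 and 9.59 in normal brain endothelium, against 10.61, 7.79 and 10.51 in glioma. Glioma replicates 1 and 3 lay above the normal range and glioma replicate 2 below it. The difference was -0.33 (SE 0.84, 95% interval -2.24 to 1.57, limma adjusted p = 0.946), and 0.59 without glioma replicate 2. Astrocytes also express Ednrb, and the glutamate transporter gene Slc1a2, an astrocyte marker picked after its values were seen, read 13.24, 11.95 and 12.22 in normal brain endothelium, against 13.55, 10.28 and 13.09 in glioma. Both genes were highest in glioma replicate 1 and lowest in glioma replicate 2. The astrocyte markers Slc1a3, S100b, Gja1 and Aldoc shared this pattern only in part. Slc1a3 read 9.72, 8.20 and 8.29 in normal brain endothelium, against 7.90, 0 and 9.50 in glioma. It was lowest in glioma replicate 2 but highest in normal replicate 1. S100b read 0, 9.50 and 9.03 in normal brain endothelium, against 9.55, 6.57 and 9.38 in glioma. It was highest in glioma replicate 1 but lowest in normal replicate 1. Gja1 read 9.85, 10.27 and 10.08 in normal brain endothelium, against 11.22, 11.07 and 10.91 in glioma, wholly higher and highest in glioma replicate 1. Aldoc read 9.28, 10.74 and 10.86 in normal brain endothelium, against 8.80, 7.52 and 9.84 in glioma, lowest in glioma replicate 2 but highest in normal replicate 3. The 8 astrocyte markers summed to 13.02 to 13.55 in normal and to 11.84 to 13.95 in glioma, with 4 to 7 above 0, and Slc1a2 was the highest of them in every library but glioma replicate 2. Their defining markers Gfap and Aqp4 were listed at 0 in normal replicate 1 and in all glioma libraries. The part of astrocyte RNA in the Ednrb values was not tested.

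**Figure D3:**
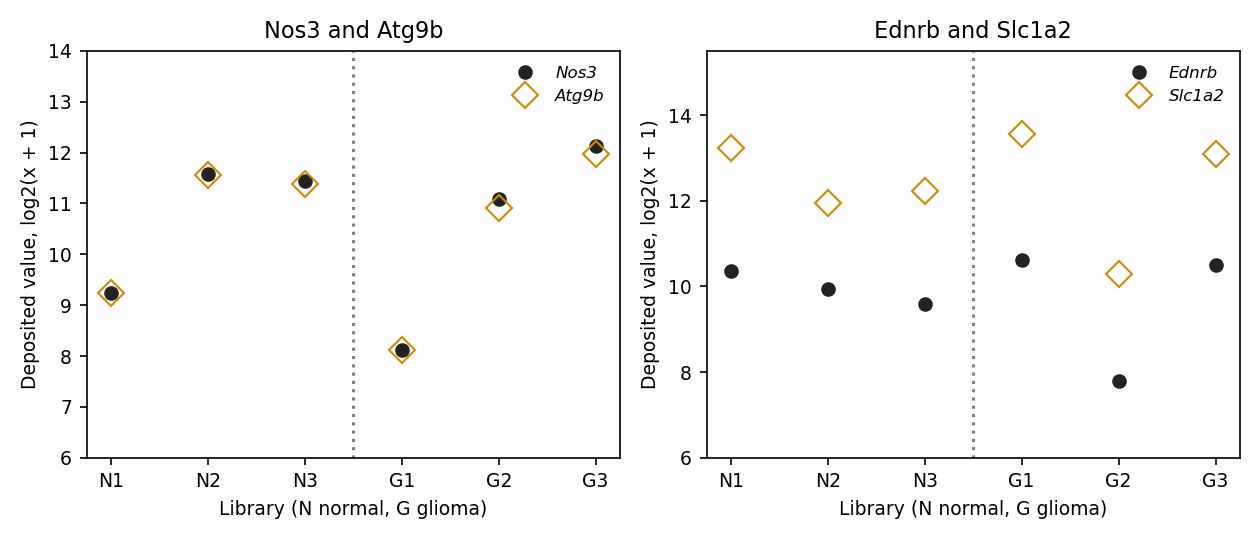
Deposited log2(x + 1) value (vertical axis) of Nos3 with Atg9b (left panel) and of Ednrb with Slc1a2 (right panel) in the 3 normal (N) and 3 glioma (G) libraries. Nos3 and Atg9b coincide in N1 and G1 and differ by at most 0.18 elsewhere. Ednrb and Slc1a2 are both lowest in G2 and highest in G1. Slc1a2 was picked after its values were seen, and the astrocyte markers Slc1a3, S100b, Gja1 and Aldoc shared this pattern only in part.

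The values under Nos3 could not be separated from those of a neighbour. Nos3 (chromosome 5, 24364810 to 24384474) and Atg9b, an autophagy gene on the opposite strand, overlap at their 3′ ends over 294 bases (24384181 to 24384474) in the GENCODE annotation of GRCm38. Nos3 read 9.25, 11.59 and 11.45 in normal brain endothelium, against 8.11, 11.10 and 12.13 in glioma. Atg9b read 9.25, 11.55 and 11.38 in normal brain endothelium, against 8.11, 10.92 and 11.97 in glioma. The values were equal in normal replicate 1 and glioma replicate 1, and Nos3 was higher by 0.04 to 0.18 in the other 4 libraries. Normal replicate 1 held 17 genes, Nos3 included, at the value of Nos3, and glioma replicate 1 held 39. Of these, only Atg9b had the value of Nos3 in both libraries. Whether reads were counted by strand is not given in the sources used here, so reads of both genes cannot be told apart.

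With that limit, the signal at Nos3 differed more between libraries than between groups. The replicates numbered 1 of both groups were lowest, and the other 4 libraries lay between 11.10 and 12.13. The difference was -0.31 (SE 1.07, 95% interval -2.75 to 2.12, limma adjusted p = 0.961). It was 0.85 without glioma replicate 1, -1.07 without normal replicate 1 and 0.10 without both. Ramp2 and Ramp3 showed the same low values in those libraries.

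Ace (chromosome 11, 105967945 to 105989964), the angiotensin-converting enzyme gene, had a single high library. It read 11.65, 8.39 and 8.06 in normal brain endothelium, against 7.61, 8.95 and 9.52 in glioma. Normal replicate 1 lay above all others, by 3.42 over the mean of normal replicates 2 and 3, which themselves differed by 0.34. The difference was -0.67 (SE 1.09, 95% interval -3.16 to 1.81, limma adjusted p = 0.905), and 0.47 without normal replicate 1. Glioma replicates 2 and 3 both lay above normal replicates 2 and 3, by 1.01 on average (adjusted p = 0.305). Normal replicate 1 also held the highest Edn1 and Ece1 values, and the highest summed level of the 12 pericyte and smooth muscle markers (14.41, against 12.72 to 14.10 in the other 5). The part of those cells in the Ace value was not tested.

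Npr3, the clearance receptor gene (chromosome 15, 11839896 to 11907287), was above 0 only in glioma. All 3 normal libraries list it at 0, and glioma replicates 1, 2 and 3 read 9.89, 6.52 and 9.53. No fold is given against a group listed at 0 in files without counts. It passed the filter only through the libraries in which it is high and has no spread in normal brain, so these values are a description and no test of them is given as support. Normal replicate 1 held no value between 0 and 7.43, so its 0 cannot be told apart from the level of glioma replicate 2, whereas the lowest values above 0 in normal replicates 2 and 3 were 2.84 and 0.22. With every value raised to a shared floor of 7.43, the groups touched and the difference was 1.52. Beside these values, summed fibroblast markers were 8.62, 6.66 and 5.95 in normal brain, against 11.84, 9.46 and 5.71 in glioma. Glioma replicate 3, with the second highest Npr3 value, had the lowest fibroblast sum, with 1 of 8 markers above 0. Its lowest value above 0 was 5.22, so markers under that level may be listed at 0. The part of fibroblasts in the Npr3 values was not tested.

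**Figure D4:**
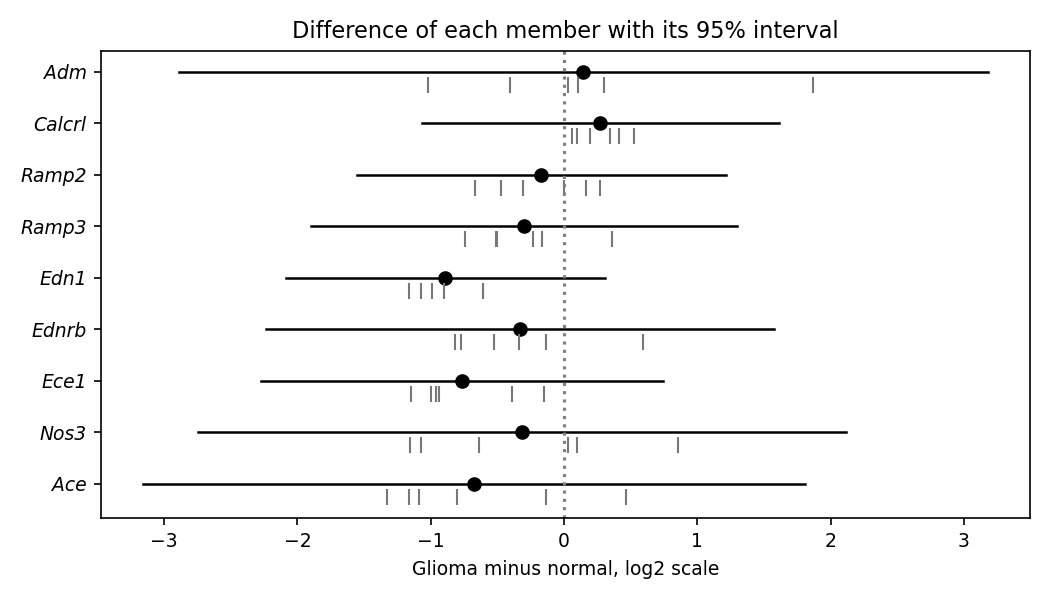
Glioma minus normal difference on the log2 scale (horizontal axis) for the 9 members above 0 in every library, with the limma estimate (dot), its 95% interval (line) and the estimates without each library in turn (grey ticks). Every interval crosses 0, and the ticks lie on both sides of 0 for Adm, Ramp2, Ramp3, Ednrb, Nos3 and Ace.

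Of 71 other genes of the same pathways, 44 passed the filter. Of these, 0 passed the limma threshold over all genes, 2 had an unadjusted p under 0.05 and 3 had groups that did not overlap, against 4.29% and 13.3% of all tested genes. By sign 23 stood higher and 21 lower, with a median difference of 0.05, as over all tested genes. In all libraries 16 genes were listed at 0, among them the ligand genes Adm2, Calcb, Edn2, Agt, Nppa and Nppb, the calcitonin receptor gene Calcr, and the receptor genes Agtr1a, Agtr1b, Agtr2, Bdkrb1 and Bdkrb2.

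In the adrenomedullin list, 4 of 8 genes were tested, 3 higher and 1 lower by sign (median 0.58). Pam, whose enzyme amidates peptides such as adrenomedullin, read 9.53, 11.58 and 11.43 in normal brain endothelium, against 8.20, 9.96 and 6.03 in glioma. Its difference was -2.79 (SE 1.07, limma adjusted p = 0.875), and the groups overlapped because normal replicate 1 lay below glioma replicate 2. Crcp, the gene of the calcitonin gene-related peptide (CGRP) receptor component, read 0, 6.68 and 5.95 in normal brain endothelium, against 9.02, 7.0 and 6.22 in glioma. In the endothelin list, 3 of 7 genes were tested (1 higher and 2 lower by sign, median -0.05). Edn3, another endothelin gene, read 8.22, 10.59 and 11.03 in normal brain endothelium, against 4.97, 9.21 and 9.08 in glioma, lowest in glioma replicate 1 as Edn1 was. The endothelin A receptor gene Ednra was above 0 only in normal replicate 3 (4.26) and glioma replicates 1 and 2 (3.81 and 6.48).

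In the nitric oxide synthesis list, 20 of 22 genes were tested, 9 higher and 11 lower by sign (median -0.10). Akt1, a kinase that activates the endothelial synthase, was at 8.91, 10.73 and 10.54 in normal and wholly higher in glioma at 10.86, 11.85 and 11.73 (difference 1.42, SE 0.63, limma adjusted p = 0.875, and 0.84 without normal replicate 1). Nostrin, whose product moves the synthase inside the cell, is named after its values were seen. It was at 10.91, 11.40 and 11.32 in normal and wholly lower in glioma at 4.37, 10.59 and 10.85 (difference -2.61, SE 1.53, adjusted p = 0.875, and -0.49 without glioma replicate 1).

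In the cyclic GMP list, 7 of 9 genes were tested, 5 higher and 2 lower by sign (median 0.27). Mrvi1, which encodes a smooth muscle target of the cyclic GMP kinase, read 9.12, 8.84 and 9.01 in normal brain endothelium, against 0, 8.19 and 0 in glioma. Myh11, the smooth muscle myosin gene, named after its values were seen, had the same pattern, at 9.07, 9.40 and 9.49 in normal and at 0, 8.36 and 0 in glioma libraries. Other markers of those cells did not share it. Acta2 read 10.29, 10.55 and 10.50 in normal brain endothelium, against 10.86, 12.23 and 8.19 in glioma, and Tagln 9.66, 7.91 and 8.34 against 8.50, 9.44 and 6.50. Des read 8.14, 7.22 and 7.65 in normal brain endothelium, against 0, 7.60 and 9.62 in glioma. The part of smooth muscle RNA in the Mrvi1 values was not tested. Pde2a, a cyclic nucleotide phosphodiesterase gene and among the highest of all pathway genes, read 14.79, 16.02 and 15.92 in normal brain endothelium, against 14.48, 15.36 and 14.97 in glioma.

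In the angiotensin and kinin list, 7 of 18 genes were tested (4 higher and 3 lower by sign, median 0.02), and 10 were listed at 0 everywhere. Enpep, an angiotensin-cleaving aminopeptidase gene, read 0, 0 and 3.87 in normal brain endothelium, against 0, 7.77 and 7.15 in glioma. Agtrap, the gene of an angiotensin receptor-associated protein, read 8.98, 9.65 and 10.10 in normal brain endothelium, against 10.11, 10.05 and 10.45 in glioma. In the natriuretic peptide list, 3 of 7 genes were tested (1 higher and 2 lower by sign, median -0.14). The signalling receptor genes did not share the pattern of Npr3. Npr1 read 7.83, 8.05 and 7.76 in normal brain endothelium, against 6.48, 0 and 10.01 in glioma, and Npr2 at 0, 5.45 and 5.80 and at 6.48, 7.60 and 0.

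The genes most like 3 of the members across the 6 libraries were sought by Pearson's r of log2 values, as a description over libraries that differ in detection. Nos3 was most like Atg9b (r = 0.9993), with which it shares the overlap above, and Tsc22d1 (r = 0.9987), and 200 genes reached an r of at least 0.95. Adm was most like Wwtr1 (r = 0.9939) and Syvn1 (r = 0.9909), with 27 such genes, and Edn1 was most like Spop (r = 0.9789) and Srxn1 (r = 0.969), with 9.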

How the data were processed

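Sorted endothelial cells were lysed in Trizol and their total RNA was turned into QuantSeq libraries (Lexogen), per the labels' protocols. The submitters' processing notes list Bowtie2, edgeR and mm10 but say neither what each was used for nor its version. The counting tool, its use of strand and the normalization step were not found in the labels or headers. Each library has 1 deposited log2 value per gene. From the values, these were read as log2(x + 1) of numbers quantile-normalized across the 6 libraries, since the maximum is equal in each and the non-zero back-transformed values lie within 0.02 of whole sixths. Depth is therefore unknown, and the number of libraries limits precision.

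Groups and replicate numbers came from the sample titles. A gene was tested where x, after back-transformation, reached 1 or more in 3 or more libraries, which left 11862 genes. These were fitted in limma (version 3.58.1, R 4.3.3) with group as the only term, a mean trend in the variance prior and Benjamini-Hochberg adjustment over all of them. Intervals are 95% intervals of that fit. Its check on simulated data set a pass mark only for a spread far narrower than here, where the median within-group log2 SD was 2.08. That check is therefore no measure of what the fit can find in these data. Gene positions are from the GENCODE M21 annotation of GRCm38, the assembly of mm10, and upstream sequences from RefSeq on GRCm38.p6.

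The members, the 6 pathway lists and the marker lists were chosen with earlier results of these data known. Named genes were all members, the 2 genes with the smallest unadjusted p in each pathway list, the 2 most like each of Adm, Edn1 and Nos3, and Pecam1 and Cldn5. A gene that this rule names in the nitric oxide synthesis list is not reported here. Others are named as listed at 0, as neighbours of a member, as markers given beside it, or as chosen after their values were seen. Alternatives covered the filter, pseudocount, floor, variance prior, centring, replicate block and leaving out libraries.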

Additional observations from a re-analysis of the deposited data

How the results depend on the processing

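Of 149 member values under alternative settings, 0 passed the adjusted threshold and 17 had the opposite sign. Centring on the endothelial markers turned Ramp2 to 0.168, Ramp3 to 0.0388, Ednrb to 0.0051 and Nos3 to 0.0230. Leaving out 1 library gave ranges of -1.02 to 1.87 for Adm, -0.67 to 0.27 for Ramp2, -0.74 to 0.36 for Ramp3, -0.82 to 0.59 for Ednrb, -1.16 to 0.85 for Nos3, -1.33 to 0.47 for Ace, -4.64 to 0.36 for Npr1, -0.93 to 3.29 for Npr2 and -1.21 to 0.72 for Atg9b. Without both replicates numbered 1, an alternative chosen after seeing the data, Adm was at 2.02, Ramp3 at 0.16, Nos3 at 0.096, Ace at 1.01 and Npr2 at -1.82, and 2446 genes had an unadjusted p under 0.05. The shared floor turned Npr1 to 0.41. The genes with an unadjusted p under 0.05 numbered 303 to 1211 without 1 library (1211 without normal replicate 1, 303 and 316 without normal replicates 2 and 3). Without a trend in the variance prior, 15 genes passed the adjusted threshold, none of them a member. The cause of these shifts was not tested, beyond the smaller number of libraries where some are left out. Same-numbered libraries of the groups deviated together with r of 0.131, 0.0267 and 0.0622 across genes. Only replicate 1 of each group was most like its own number. Correlations from so few libraries cannot settle whether the numbers pair the samples. With the replicate block, 0 genes passed the adjusted threshold and 610 had an unadjusted p under 0.05. Depth is unknown, so a gene listed at 0 may have been missed, most of all in normal replicate 1.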
